A study of Mus musculus with 12 samples.

Results

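The 10 genes described here encode neuromodulator receptors that couple to inhibitory G proteins of the Gi/o class, and were taken by symbol from a list of adenylate cyclase-inhibiting receptors. The choice was made with earlier results of these data known. All 10 were present among the 19312 genes of the deposited table, and all 10 had a mean of at least 10 normalized counts and entered every test. The list comprised the adenosine receptor gene Adora1, the cannabinoid receptor gene Cnr1, the opioid family genes Oprm1, Oprk1 and Oprl1, the muscarinic genes Chrm2 and Chrm4, the neuropeptide Y receptor gene Npy1r, the histamine receptor gene Hrh3 and the GABA-B receptor subunit gene Gabbr1. The genes lie on several chromosomes, in GENCODE M21 coordinates on GRCm38. Chromosome 2 carries 3 of them: Hrh3 at chr2:180099465-180104488 on the minus strand, Oprl1 at chr2:181715016-181720985 on the plus strand and Chrm4 at chr2:91927249-91928688 on the plus strand. Chromosome 1 carries Adora1 at chr1:134199223-134235431 on the minus strand and Oprk1 at chr1:5588466-5606131 on the plus strand. The others are Cnr1 at chr4:33924593-33948831 on the plus strand, Chrm2 at chr6:36388084-36528414 on the plus strand, Npy1r at chr8:66697192-66706792 on the plus strand, Oprm1 at chr10:6758506-7038198 on the plus strand and Gabbr1 at chr17:37045966-37075067 on the plus strand.

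RNA from 12 male C57BL/6N mice, 3 per group, was sequenced at postnatal day 25. WT mice and homozygous Shank2-KO mice, in which exons 6 and 7 of Shank2 are deleted, were given memantine or vehicle by mouth. Memantine, an open-channel blocker of NMDA receptors, was given at 20 mg/kg in 0.1% saccharin, in 2 daily doses over postnatal days 7 to 21, and the vehicle was 0.1% saccharin alone. The groups are named KO-Mem, KO-Veh, WT-Mem and WT-Veh after genotype and treatment, and every mouse of every group received saccharin. Brains were not pooled, and the litter of each mouse is not given in the sources used here.

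Receptors of this class respond to a transmitter or peptide by exchanging GTP on the Gi/o alpha subunit, which then lowers cyclic AMP production by adenylyl cyclases. The released beta-gamma dimer opens inwardly rectifying potassium channels of the GIRK type and closes voltage-gated calcium channels. At forebrain synapses many of these receptors sit on axon terminals and reduce transmitter release. RGS proteins end the signal by speeding GTP hydrolysis, and receptor kinases and arrestins desensitize the receptor.

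Several receptors are close relatives, so the longest stretches of coding sequence they have in common are shown first. The opioid family members shared 68.6% to 73.2% of aligned coding bases with each other. The longest run of identical coding bases between Oprk1 and Oprl1 was 25 bases, against 17 bases between Oprm1 and either relative. Capitals mark the run that the pair Oprk1 and Oprl1 share, and in Oprm1 the run shared with Oprk1, with 10 flanking bases on each side, from the coding sequences of GENCODE M21 on GRCm38.
Oprk1: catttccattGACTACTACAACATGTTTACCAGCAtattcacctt
Oprl1: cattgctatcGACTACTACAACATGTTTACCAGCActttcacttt
Oprm1: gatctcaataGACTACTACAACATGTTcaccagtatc
The muscarinic pair Chrm2 and Chrm4 shared 70.8% of aligned coding bases and a longest run of 23 bases, in capitals below.
Chrm2: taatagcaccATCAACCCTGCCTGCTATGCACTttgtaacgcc
Chrm4: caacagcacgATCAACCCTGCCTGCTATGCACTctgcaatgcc
Each of these runs is shorter than the 100-base reads. The kit did not mark strand, so reads from genes on the opposite strand cannot be told apart where exons overlap. Such overlap covered 20.1% of the exon bases of Adora1 (with Mybph), 11.1% of Hrh3 (with Gm17180), 2.35% of Chrm2 (with 9330158H04Rik) and 1.19% of Oprm1 (with Ipcef1). Mybph and Gm17180 are not among the genes of the deposited table, and 9330158H04Rik averaged 29.9 normalized counts over the mice. Ipcef1 averaged 2213, against 103.0 for Oprm1 itself.

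Start regions are shown for the receptors with the smallest p-value among the higher and the lower genes in the averaged genotype comparison (Oprl1 and Adora1) and with the smallest interaction p-value (Chrm4). Each sequence is the 250 bases before the RefSeq start on GRCm38.p6, written in the direction of transcription, and capitals mark matches on either strand. The letters searched were GGGCGG for the GC box, then CCAAT for the CCAAT box, then TATAAA for the TATA box. The half-site of the cyclic AMP response element, TGACG, was searched too, and so was the E-box, CACGTG.
Oprl1 (chr2:181714766-181715015, plus strand): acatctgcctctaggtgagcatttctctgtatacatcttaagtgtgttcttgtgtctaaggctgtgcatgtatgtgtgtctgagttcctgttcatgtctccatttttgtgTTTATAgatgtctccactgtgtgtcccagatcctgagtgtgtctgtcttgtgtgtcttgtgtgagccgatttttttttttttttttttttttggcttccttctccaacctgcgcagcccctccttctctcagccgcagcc
Adora1 (chr1:134235458-134235707, minus strand): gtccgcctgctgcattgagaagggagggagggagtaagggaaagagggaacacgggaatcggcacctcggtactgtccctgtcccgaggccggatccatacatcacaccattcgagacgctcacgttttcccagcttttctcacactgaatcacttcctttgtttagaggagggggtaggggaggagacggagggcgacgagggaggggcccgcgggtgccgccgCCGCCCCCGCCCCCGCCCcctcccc
Chrm4 (chr2:91921939-91922188, plus strand): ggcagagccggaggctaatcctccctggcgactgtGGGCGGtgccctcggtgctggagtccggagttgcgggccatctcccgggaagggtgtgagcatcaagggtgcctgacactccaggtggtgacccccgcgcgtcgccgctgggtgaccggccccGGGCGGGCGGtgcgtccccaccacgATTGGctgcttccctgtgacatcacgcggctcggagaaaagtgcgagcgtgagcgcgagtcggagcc
The Oprl1 stretch held 1 match, a TATA box on the opposite strand 140 to 135 bases before the start. The Adora1 stretch held 3 adjacent GC boxes within 25 bases of the start, and the Chrm4 stretch held 3 GC boxes, 2 of which overlap, and 1 CCAAT box. In the full 300-base windows (250 bases before to 50 after the start), 9 of the 10 receptors had an entry, all but Oprk1. A GC box was found in 6 of these 9 windows (Adora1, Chrm2, Chrm4, Cnr1, Gabbr1 and Hrh3) and in 35.9% of all 27025 windows. CCAAT was found in 3 of 9 against 37.9%, and TATAAA in 1 of 9, that of Oprl1, against 14.2%. No window of the 9 held the cyclic AMP response element TGACGTCA, present in 1.88% of all windows, its half-site TGACG, present in 21% (each full element contains a half-site), or the E-box CACGTG, present in 7.24%. The median GC content was 66% in the 9 windows and 52.7% in all windows.

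Shank2 itself was lower in every KO mouse, which checks the genotype labels. It lay between 7156 and 8548 normalized counts in the 6 WT mice and between 2706 and 3178 in the 6 KO mice, with a log2 fold change of -1.45 under vehicle and -1.44 under memantine. The values of a mouse summed to 30373849 to 31199251 normalized counts, which is a scaled total and not the sequencing depth. Neuronal markers of forebrain were abundant in every mouse, with the cortical glutamate transporter gene Slc17a7 at 34249 to 43626 and the striatal gene Ppp1r1b at 6181 to 8150 normalized counts. The labels name whole brain and the methods name forebrain without cerebellum and brain stem. WT-Veh replicate 3 had the highest sum of 5 oligodendrocyte markers (380100.0 against 223677 to 321770.0 in the other 11 mice). KO-Veh replicate 3 stood apart in cerebellar markers, with a sum over 8 genes of 3754 normalized counts against 1663 to 2094 in the other 11 mice. The granule cell gene Gabra6 was at 253.9 in that mouse and at most 12.9 in the others, and the Purkinje cell gene Pcp2 was at 379.7 against at most 21.5. Brain stem markers (4 of 8 listed genes are in the table) summed to 53.9 to 554.4 over the mice, and were highest in WT-Mem replicate 3 (554.4), WT-Veh replicate 3 (520.2) and KO-Veh replicate 3 (413.6). Oligodendrocyte markers (5 genes) summed to 275020 to 380100.0 in WT mice and 223677 to 285135 in KO mice, microglial markers (5 genes) to 5187 to 6155 and 3966 to 5290, and endothelial markers (5 genes) to 5734 to 6667 and 5239 to 5879. In bulk tissue, fewer cells of a type and less RNA per cell cannot be told apart.

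Levels were compared between receptors as normalized counts per kilobase of exon, averaged over the 12 mice. Gabbr1, the GABA-binding subunit of the GABA-B receptor, was the most abundant at 2988 per kilobase. Adora1, which encodes the A1 receptor, followed at 1266 and Hrh3, which encodes the presynaptic histamine receptor, at 1204 per kilobase. The ranges of these last genes over mice, 1146 to 1435 and 1033 to 1336, overlapped, so their order is not separated. Cnr1, the main brain cannabinoid receptor, stood below them at 720.2 per kilobase. Oprl1, the nociceptin receptor, reached 500.3 and Chrm4, the M4 muscarinic receptor, 478.0 per kilobase, and their ranges also overlapped. The exon model of Chrm4 is 1440 bases, the coding sequence alone, so its value per kilobase rests on a shorter model than those of its neighbours. Npy1r (246.1), Chrm2 (97.8), the kappa opioid receptor gene Oprk1 (49.2) and the mu opioid receptor gene Oprm1 (12.8 per kilobase) completed the order with no overlap between neighbours.

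**Figure D1:**
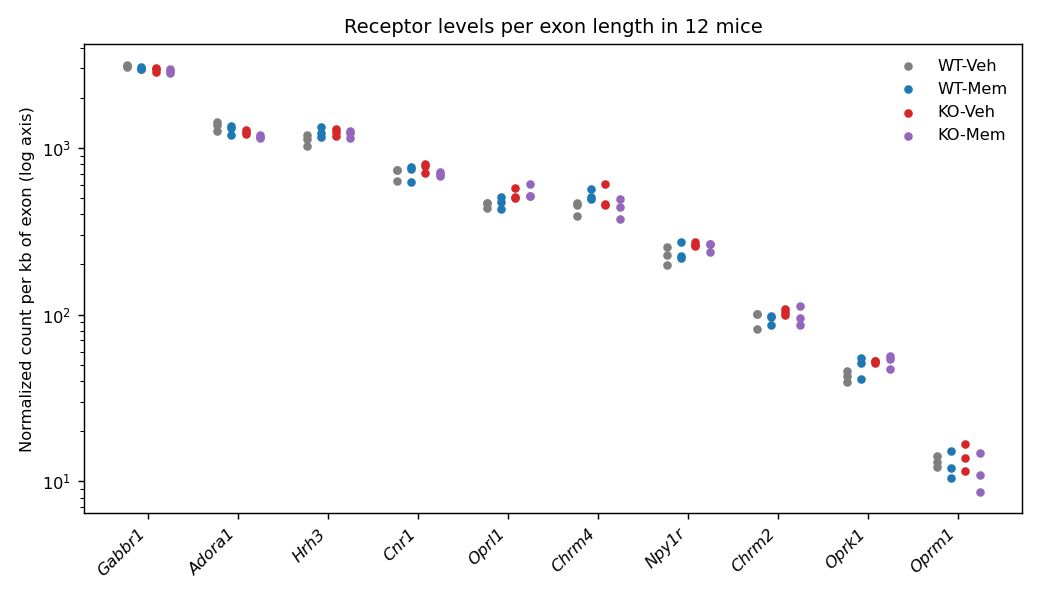
Normalized count per kilobase of exon (log axis) for each receptor gene, with 1 point per mouse and 1 colour per group. The receptors fall from 2988 for Gabbr1 to 12.8 for Oprm1, and the groups of each gene lie close together relative to the distance between most genes.

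Among mice, the SD of Gabbr1 was 1.29% to 3.17% of the group mean. In the KO groups Adora1 varied less than Gabbr1, at 2.62% in KO-Veh and 2.13% in KO-Mem, as did Oprk1 and Npy1r in KO-Veh. The largest spread was that of Oprm1 in KO-Mem, at 27.0%. Highest over lowest mouse was 1.11 for Gabbr1, 1.25 for Adora1, 1.29 for Cnr1 and Hrh3, and 1.94 for Oprm1. The 10 receptors therefore differ in how small a change 3 mice can show.

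**Figure D2:**
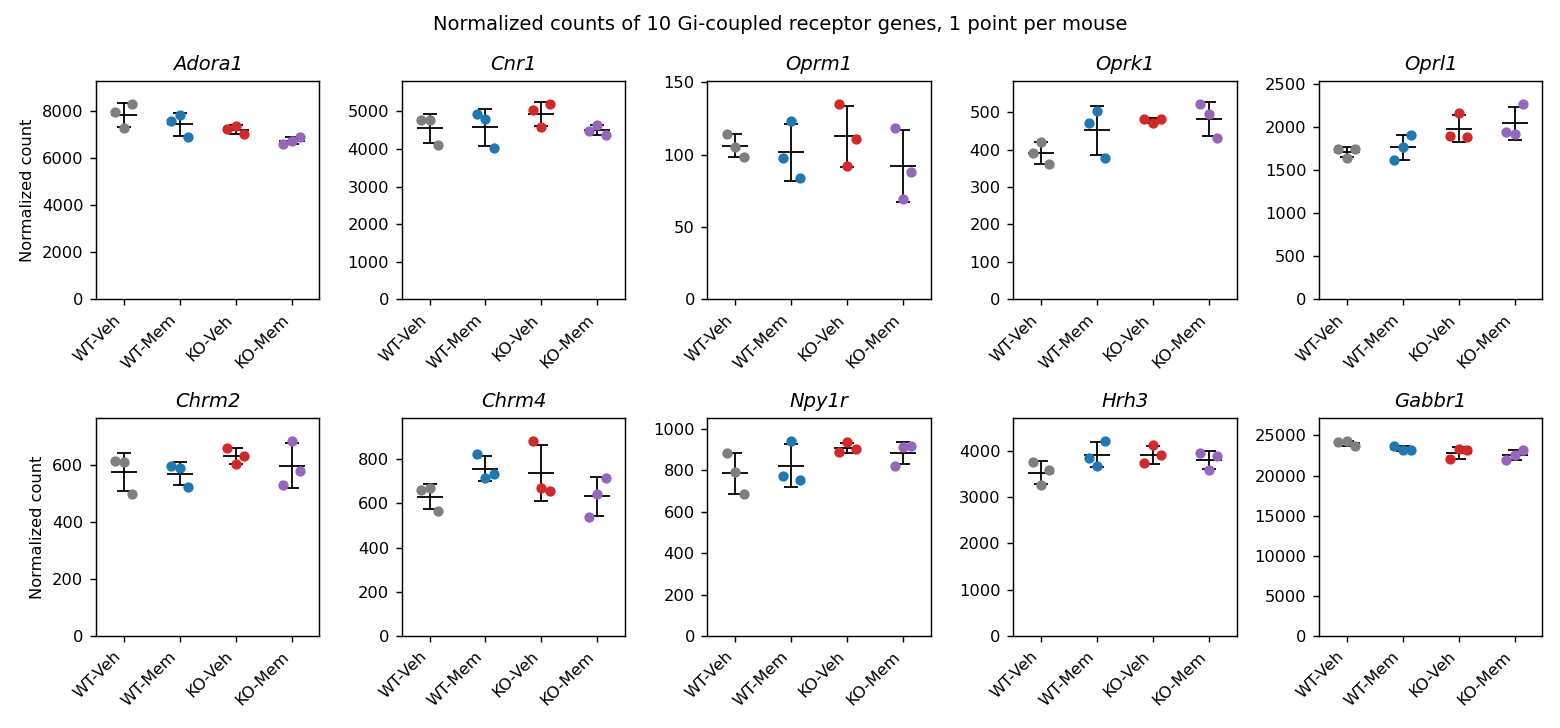
Normalized counts (vertical axes, from 0) of the 10 receptor genes in the 4 groups, with 1 point per mouse, a bar at the mean and an error bar of 1 SD (n = 3). The Oprl1 points of both KO groups sit mostly above the WT points, and the Chrm4 points of WT-Mem sit above those of WT-Veh.

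The comparison of vehicle-treated KO mice with vehicle-treated WT mice (Veh-K/W transcripts) addressed baseline genotype differences. No receptor passed an adjusted p of 0.05 in limma on log2(normalized count + 1), and the smallest adjusted p of the 10 was 0.231, for Oprk1. Over all 17671 genes tested, 5 passed, which is 0.0283%. At an unadjusted p under 0.05, 3 receptors were higher in KO-Veh (Oprk1, Oprl1 and Npy1r) and none lower, against 6.73% of all genes higher and 14.4% in either direction. The median log2 difference was 0.15 over the 10 receptors, 8 of which were above 0, against 0.0017 over all genes, 50.4% of which were above 0.

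Oprk1 was at 390.5, 420.9 and 360.3 normalized counts in WT-Veh, whereas KO-Veh had 481.9, 469.8 and 482.4. All KO-Veh mice were above all WT-Veh mice, by a mean log2 of 0.29 ± 0.09 (SE), but this missed the adjusted threshold. The gene encodes the receptor for dynorphin peptides. Oprl1 was 1751, 1643 and 1745 in WT-Veh and 1904, 2167 and 1884 in KO-Veh, again without overlap, at log2 0.21 ± 0.07 (SE) and an adjusted p of 0.262 (limma). Npy1r, the Y1 receptor gene, was 881.6, 792.5 and 685.4 in WT-Veh and 886.4, 936.3 and 902.7 in KO-Veh. The lowest KO-Veh mouse was barely above the highest WT-Veh mouse, and the log2 difference was 0.21 ± 0.10 (SE; adjusted p = 0.346, limma).

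Gabbr1 lay the other way, at 24160, 24287 and 23677 in WT-Veh and 22001, 23336 and 23154 in KO-Veh, a log2 difference of -0.07 ± 0.06 (SE). The groups did not overlap for these 4 receptors, against 20.4% of all genes tested. Adora1 (-0.12), Hrh3 (0.15), Cnr1 (0.12), Chrm2 (0.14), Chrm4 (0.21) and Oprm1 (0.07 on the log2 scale) overlapped between groups. Without KO-Veh replicate 3, no receptor passed, the smallest adjusted p was 0.526, and the 10 log2 differences ran from -0.10 to 0.29 in the same directions.

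In memantine-treated mice (Mem-K/W transcripts), no receptor passed either, with a smallest adjusted p of 0.225 against 0.068% of all 17646 genes passing. At an unadjusted p under 0.05, Oprl1 was higher and Chrm4 lower, against 21% of all genes. The median log2 difference of the 10 was -0.03, with 4 above 0, against 0.0022 over all genes, 50.3% of which were above 0.

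Oprl1 was 1623, 1770 and 1913 in WT-Mem and 1945, 1923 and 2265 in KO-Mem, with no overlap and a log2 difference of 0.21 ± 0.09 (SE; adjusted p = 0.226, limma). The size was close to that under vehicle. Chrm4 was 821.7, 715.2 and 733.9 in WT-Mem and 536.6, 640.6 and 715.2 in KO-Mem. The highest KO-Mem mouse was level with the lowest WT-Mem mouse, and the log2 difference was -0.27 ± 0.12 (SE; adjusted p = 0.225, limma). Gabbr1 also did not overlap, at 23708, 23188 and 23188 against 21944, 22542 and 23156, a log2 difference of -0.05 ± 0.05 (SE). These 3 receptors without overlap compare with 26.2% of all genes tested. The other 7 receptors overlapped between WT-Mem and KO-Mem.

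**Figure D3:**
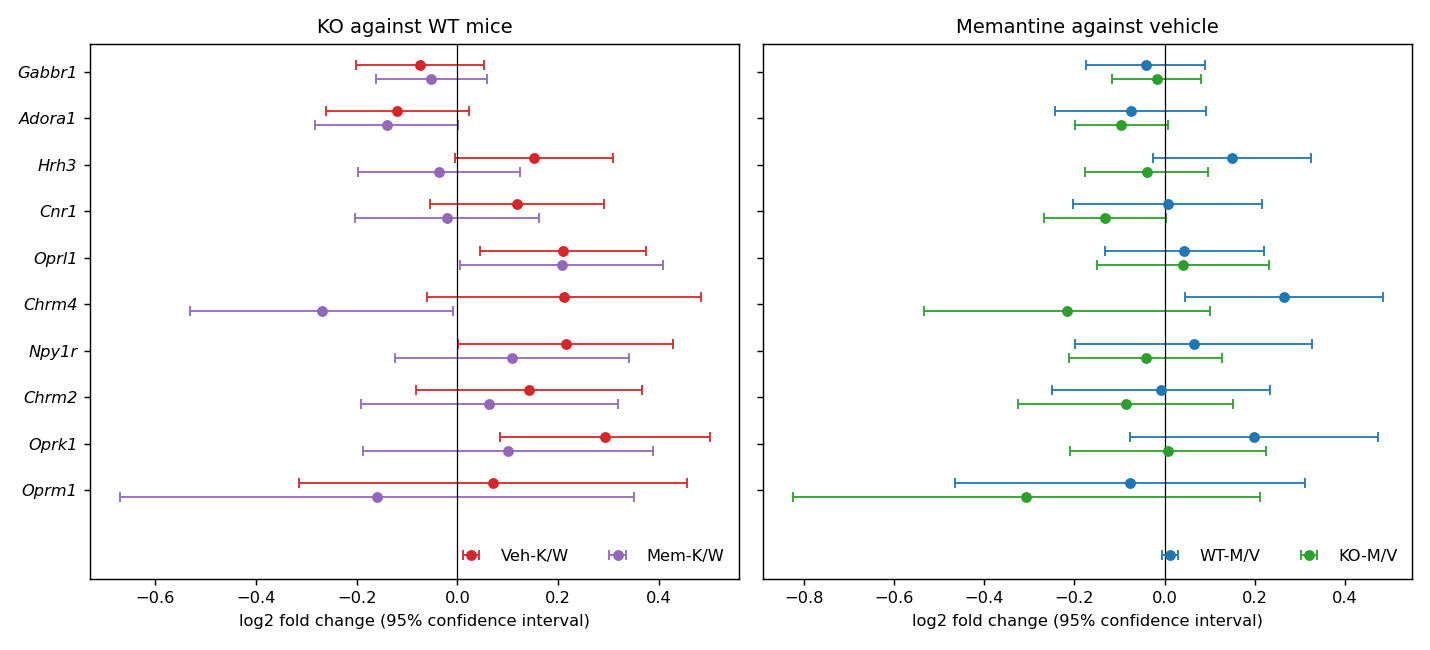
Log2 fold changes with 95% confidence intervals (horizontal axes) of the 10 receptor genes for KO against WT mice under vehicle and memantine (left) and memantine against vehicle in WT and KO mice (right), ordered by level per kilobase. Oprl1 is near 0.21 in both KO-against-WT comparisons, and Chrm4 is at 0.21 under vehicle (0.075 without KO-Veh replicate 1) and -0.27 under memantine.

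Memantine was compared with vehicle within each genotype. In KO mice (KO-M/V transcripts) no receptor had an unadjusted p under 0.05, against 8.88% of all genes, and no gene of 17707 passed the adjusted threshold (0%). The smallest adjusted p of the 10 was 0.560, for Cnr1. The median log2 difference of the 10 was -0.06, with 2 above 0, against -0.0013 over all genes, 49.7% of which were above 0. Adora1 was 7248, 7401 and 7025 in KO-Veh against 6630, 6734 and 6915 in KO-Mem, a log2 difference of -0.10 ± 0.05 (SE; adjusted p = 0.567, limma). It was the 1 receptor without overlap, against 13.9% of all genes. Cnr1 was 5043, 4578 and 5185 in KO-Veh against 4491, 4634 and 4366 in KO-Mem, with 1 KO-Veh mouse inside the KO-Mem range and a log2 difference of -0.13 ± 0.06 (SE). The other differences ran from -0.31 for Oprm1 to 0.04 for Oprl1. Oprm1, the least abundant, had a 95% interval from -0.83 to 0.21.

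In WT mice (WT-M/V transcripts) no receptor passed, and 2 of 17564 genes did (0.0114%). Chrm4 was 658.4, 668.8 and 564.0 in WT-Veh and 821.7, 715.2 and 733.9 in WT-Mem. All WT-Mem mice were above all WT-Veh mice, at a log2 difference of 0.27 ± 0.10 (SE), an unadjusted p of 0.0225 and an adjusted p of 0.978 in limma. It was the 1 receptor without overlap and the 1 with an unadjusted p under 0.05, against 9.34% and 3.97% of all genes. M4 receptors are known as inhibitory autoreceptors on cholinergic terminals and as receptors of striatal projection neurons. Hrh3 was 3744, 3250 and 3577 in WT-Veh and 3839, 3675 and 4202 in WT-Mem, with 1 WT-Veh mouse inside the WT-Mem range, and its log2 difference was 0.15 ± 0.08 (SE). Oprk1 was 390.5, 420.9 and 360.3 in WT-Veh and 471.2, 503.3 and 378.2 in WT-Mem, which overlapped. The 7 other receptors ran from -0.08 to 0.06 on the log2 scale.

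The genotype by treatment interaction asks whether the KO-against-WT difference under memantine differs from that under vehicle. It was fitted on all 12 mice, and no receptor and no gene of 17655 passed (0%), with the smallest adjusted p at 0.947. Chrm4 had the largest value of the 10, at -0.48 ± 0.18 (SE, log2), with an unadjusted p of 0.0187 against 4.76% of all genes under 0.05. Its group means were 630.4 ± 57.8 in WT-Veh and 757.0 ± 56.9 in WT-Mem (SD, n = 3), whereas KO-Veh had 734.9 ± 126.4 and KO-Mem 630.8 ± 89.7. The WT groups did not overlap, but the KO groups did: the KO-Mem mouse at 715.2 was above 2 of the 3 KO-Veh mice, and KO-M/V gave an unadjusted p of 0.157. The KO-Veh mean included 1 mouse at 880.8 (replicate 1), well above the other KO-Veh values of 667.1 and 656.9. Without that mouse the KO-M/V difference was -0.079 in place of -0.22, the Veh-K/W difference 0.075 in place of 0.21, and the interaction -0.34. Over all fits that left out 1 mouse the interaction ran from -0.58 to -0.34.

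The interaction was negative for 9 of the 10 receptors, with a median of -0.12 against -0.0047 over all genes, and Gabbr1 was the exception at 0.02. Of all genes, 48.9% had an interaction above 0. Related lists leaned the same way, with 16 of 19 other Gi-coupled receptors below 0 (median -0.13) and 3 above. Of 9 adenylyl cyclases, 7 were below 0 (median -0.15) and 2 above, while 6 of 7 receptor kinases and arrestins were above 0 (median 0.05). The lean was not particular to Gi-coupled receptors. Of 7 receptors for the same transmitters that couple to Gs or Gq, 5 were below 0 (median -0.16) and 2 above. Of 13 adenosine and endocannabinoid enzymes, 11 were below 0 (median -0.11) and 2 above. RGS proteins were more evenly split, with 10 below 0 (median -0.03) and 7 above. These values are not independent, since the same mice enter each, and the genes were chosen with earlier results of these data known. For Oprl1 the interaction was -0.002, with a 95% interval from -0.26 to 0.25. For Adora1 it was -0.02, with an interval from -0.21 to 0.17. Those intervals leave room for a treatment-dependent genotype difference of the size of the genotype differences themselves.

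**Figure D4:**
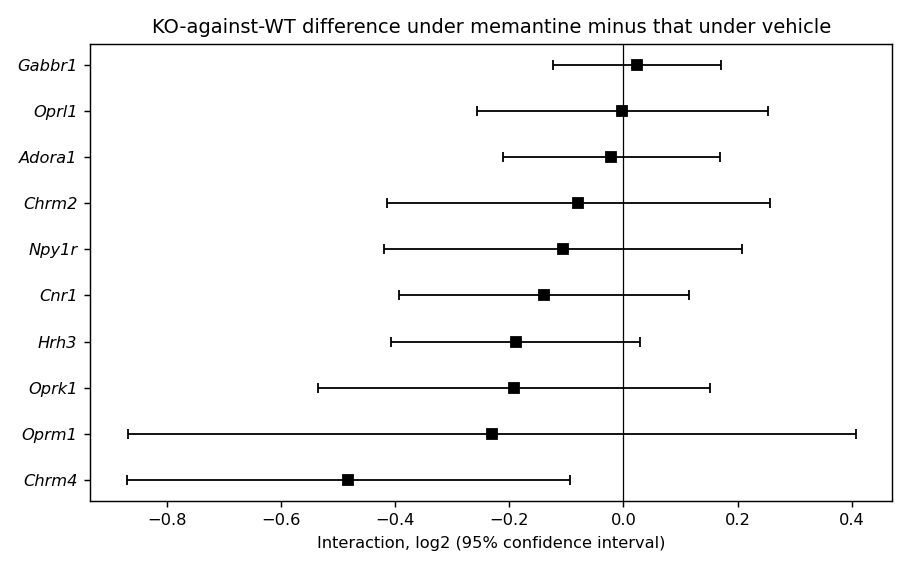
Genotype by treatment interaction (horizontal axis, log2, with 95% confidence intervals) of the 10 receptor genes, sorted by value. Chrm4, at -0.48, is the 1 receptor whose unadjusted interval lies wholly below 0.

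Averaging the genotype difference over both treatments used 6 KO and 6 WT mice. Oprl1 rose in KO mice, by log2 0.21 ± 0.06 (SE), or 15.6%, with an adjusted p of 0.0399 in limma. This 1 of 10 receptors compares with 10.5% of all 17655 genes tested, 4.79% in the higher direction, so the share of receptors past the threshold was near that of all genes. The 6 WT mice had 1623 to 1913 and the 6 KO mice 1884 to 2265 normalized counts, and 2 KO mice were below the highest WT mouse. No receptor was without overlap between 6 and 6 mice, against 4.06% of all genes. Nociceptin, the ligand of this receptor, is a peptide of the opioid family that does not bind the classical opioid receptors.

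The Oprl1 call held in 1 of the 12 fits that left out 1 mouse, that without WT-Mem replicate 3, where the adjusted p was 0.0374. In the other 11 the log2 difference was 0.17 to 0.23 and the adjusted p reached 0.0931, and without KO-Veh replicate 3 it was 0.23 at an adjusted p of 0.0695. Marker genes were read in the fit of all 12 mice at an adjusted p under 0.05 (limma). Of 5 genes each, 4 oligodendrocyte, 4 endothelial, 2 astrocyte and 1 microglial markers passed as lower in KO mice. Of all genes, 5.73% passed as lower and 4.79% as higher. By direction alone, 5 of 5 oligodendrocyte, 5 of 5 microglial, 4 of 5 endothelial and 4 of 5 astrocyte markers were below 0. Of 8 interneuron markers, 3 passed as higher and 2 as lower, with 5 above 0 and 3 below. The marker calls were not refitted without single mice. The part of these shifts in the Oprl1 value was not tested.

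At an unadjusted p under 0.05, 3 further receptors differed, 4 with Oprl1, against 29.4% of all genes. Adora1 was 6630 to 7401 in KO mice and 6911 to 8300 in WT mice, at log2 -0.13 ± 0.04 (SE; adjusted p = 0.0736, limma). The ranges overlapped, although the highest KO mouse was below 4 of the 6 WT mice. Oprk1 was at 0.20 ± 0.08 (SE; adjusted p = 0.121, limma) and Npy1r at 0.16 ± 0.07 (SE; adjusted p = 0.159, limma). The opioid family thus gave log2 values of 0.21 for Oprl1, 0.20 for Oprk1 and -0.04 for Oprm1, and only that of Oprl1 passed. The remaining values were 0.10 for Chrm2, 0.06 for Hrh3, 0.05 for Cnr1, -0.03 for Chrm4 and -0.06 for Gabbr1. Averaging memantine against vehicle over both genotypes gave no receptor and no gene past the threshold (0%), and none of the 10 had an unadjusted p under 0.05, against 8.68% of all genes. Those values ran from -0.19 for Oprm1 to 0.10 for Oprk1.

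The partners of these receptors were followed through lists by role, in the averaged genotype fit. No gene of any of these lists passed in the 4 pairwise comparisons, in the interaction or in the averaged memantine fit. Of 19 other Gi-coupled receptors tested, none passed, and the smallest adjusted p-values were those of the delta opioid receptor gene Oprd1 (log2 -0.26, adjusted p = 0.0988) and the dopamine receptor gene Drd2 (-0.18, adjusted p = 0.110, limma). Of 7 receptors for the same transmitters that couple to Gs or Gq, 2 passed, against 10.5% of all genes in this fit. Chrm5, a Gq-coupled muscarinic receptor gene, rose by log2 0.64 ± 0.19 (SE) from a low level (adjusted p = 0.0477, limma). Hrh1, the Gq-coupled histamine receptor gene, fell by 0.44 ± 0.13 (SE; adjusted p = 0.0436, limma). Each passed in 2 of the 12 fits that left out 1 mouse.

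Of 19 Gi/o alpha, beta and gamma subunits, 4 fell and none rose, with a median of -0.08 against 0.0035 over all genes. Of all genes, 5.73% passed as lower and 4.79% as higher in this fit. The 4 that fell were Gnao1, the main neuronal Go alpha subunit, at -0.14 ± 0.04, and the gamma subunits Gng5 (-0.35 ± 0.09), Gng8 (-0.86 ± 0.20) and Gng11 (-0.81 ± 0.19, log2 with SE). The mean of Gnao1 was 23596 in WT-Veh and 22896 in WT-Mem, and it was lower in both KO groups, at 21620 under vehicle and 20619 under memantine. Of 17 RGS proteins, 5 fell (Rgs2, Rgs4, Rgs5, Rgs6 and Rgs16) and Rgs17 rose, against the same shares of all genes. Rgs4, which acts on Gi and Gq signals in cortical neurons, fell by 0.31 ± 0.07 (adjusted p = 0.0172) and Rgs5, a gene of vascular pericytes, by 0.55 ± 0.09 (adjusted p = 0.00827, limma). Rgs2 fell by 0.35, Rgs6 by 0.29 and Rgs16 by 0.50, and Rgs17 rose by 0.26 on the log2 scale. Endothelial and oligodendrocyte markers were lower in the same KO mice. Their part in the values of Rgs5, the other RGS genes and the G protein subunits was not tested.

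Among effectors, none of 9 adenylyl cyclases passed, and Adcy7 (0.21, adjusted p = 0.0552) and Adcy2 (-0.17, adjusted p = 0.0631, limma) were nearest. None of 4 GIRK channels passed, with Kcnj5 at 0.22 and Kcnj3 at 0.07. Of 7 receptor kinases and arrestins, 1 passed, against 10.5% of all genes in this fit. Grk3, a kinase that phosphorylates active receptors, rose by 0.30 ± 0.07 (adjusted p = 0.0163, limma). Its means were 5281 in KO-Mem and 4580 in KO-Veh against 4030 in WT-Mem and 3913 in WT-Veh. Grk5 was at -0.19 (adjusted p = 0.103, limma). Of 5 GABA-B receptor partners, 1 passed, against the same share of all genes. Kctd8, an auxiliary subunit, rose by 0.30 ± 0.09 (SE; adjusted p = 0.0456, limma). Gabbr2, with which Gabbr1 forms the receptor, was at -0.05 ± 0.05 (SE).

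On the ligand side, none of 5 genes for opioid, nociceptin and neuropeptide Y precursors passed, with Penk, the enkephalin precursor, at -0.12 and Pnoc, the nociceptin precursor, at 0.11 (adjusted p = 0.190 and 0.422, limma). Of 12 genes for synthesis, transport and breakdown of acetylcholine, histamine and GABA, Gad2, which makes GABA, rose by 0.19 ± 0.05 (SE), and the choline transporter gene Slc5a7 was at 0.16 (adjusted p = 0.202, limma). Of 13 adenosine and endocannabinoid enzymes, Mgll, which breaks down the endocannabinoid 2-AG, fell by 0.12 ± 0.04 (SE), and Nt5e, which makes adenosine, was at 0.24 (adjusted p = 0.0567, limma). In all, 16 of the 116 distinct list genes tested passed, against 10.5% of all genes in the same fit. Over the fits that left out 1 mouse, 4 to 28 list genes passed, with the lowest count without KO-Veh replicate 3 (Gng11, Rgs5 and Rgs6 lower, Grk3 higher, against 2.99% of all genes) and the highest without KO-Mem replicate 3 (against 18.5%). The count was 6 without KO-Mem replicate 1 or 2, 7 without WT-Veh replicate 2 or KO-Veh replicate 1, and 9 and 10 without WT-Mem replicates 3 and 1. These fits were chosen after the calls with all mice were seen. The 16 genes kept their direction in each of those fits, at 0.749 to 1.29 of their log2 size with all mice, and Rgs5, Rgs6 and Grk3 passed in 12 of 12. Gng11, Rgs4 and Rgs16 passed in 11 of the 12, Gng8 and Rgs2 in 8, and Rgs17 and Gad2 in 5. Gng5 passed in 4, Gnao1 in 3, Chrm5 and Hrh1 in 2, and Kctd8 and Mgll in 1. With the third mice of KO-Veh and WT-Veh left out together, 1 list gene passed (Rgs5), against 0.42% of all genes.

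**Figure D5:**
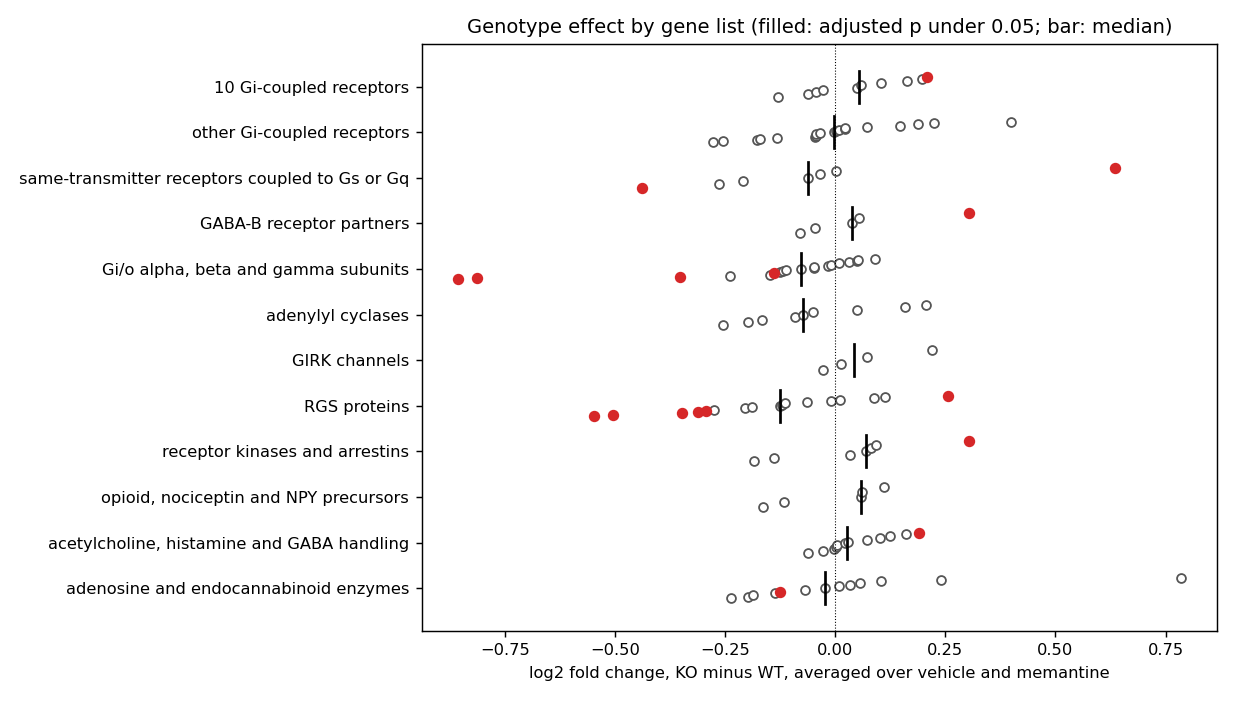
Log2 fold change of KO against WT mice averaged over both treatments (horizontal axis) for the 10 receptor genes and 11 lists of related genes, with 1 point per gene, filled where the adjusted p was under 0.05, and a bar at the median of the list. RGS proteins (5 of 17) and G protein subunits (4 of 19) hold the most filled points below 0, against 5.73% of all genes passing as lower. Of the 10 receptors, 1, Oprl1, is filled at 0.21.

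The receptors were also compared with all other genes of mean at least 50 (14200 genes) by Pearson correlation over the 12 mice. The values are a description, since the mice share their groups. Each best value is the highest of 14200, and how high it would be among unrelated genes was not tested. The 2 most alike genes of Adora1 were Efcab12 (r = 0.954) and Slc25a23 (0.927), and those of Cnr1 were Dnajb14 (0.938) and Chl1 (0.926). For the opioid family they were Pcdh11x (0.928) and Ikzf5 (0.919) with Oprk1, Cdk6 (0.861) and A630089N07Rik (0.832) with Oprm1, and Pcsk4 (0.827) and Hcrt (0.824) with Oprl1. Chrm4 was most like Celf6 (0.931) and Epb41l2 (0.889), and Chrm2 like Wnk3 (0.904) and Bcl11b (0.889). Best values for Npy1r were with Gas7 (0.909) and Zfp965 (0.907), for Hrh3 with Shmt1 (0.883) and Gm9866 (0.845), and for Gabbr1 with Chmp1b (0.935) and Eif4a2 (0.929). Oprl1 had the lowest best value of the 10. Among the receptors themselves, the highest values were 0.772 for Cnr1 with Chrm2, 0.695 for Chrm2 with Npy1r, 0.624 for Oprk1 with Npy1r and 0.615 for Adora1 with Gabbr1. Oprl1 and Oprk1, whose log2 genotype differences were alike in size, had an r of 0.187 over the same mice.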

How the data were processed

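RNA libraries of 12 mice were made with a kit that does not mark strand and sequenced as paired 100-base reads. The authors estimated transcript abundance with Salmon 1.1.0 with GC bias correction on GRCm38, imported it to genes with tximport, and deposited expression values (unit: signal) that are estimated counts divided by DESeq2 normalization factors, called normalized counts here. The submitters' processing notes name DESeq2 1.26.0 and R 3.6.2. The values are not raw counts and the sequencing depth is unknown, so no count model was used. The group and replicate number of each mouse came from its label, and each column was matched to a label by name.

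Values were transformed to log2(value + 1), genes with a mean of at least 10 over the mice of a comparison were kept, and differences were tested with limma 3.58.1 (trend, R 4.3.3) with Benjamini-Hochberg adjustment over all genes at 0.05. Fold changes on this scale understate those of low genes. Pairwise comparisons used their own 6 mice, and the interaction and averaged effects all 12. An exact permutation test of 3 against 3 mice cannot go below 0.1, so none is reported. The procedure was tested on simulated data with known changes. True log2 changes of 0.25 were recovered in 11% of cases for Veh-K/W and 45% for the averaged genotype effect. For true changes of 0.5 the shares were 84% and 98%. The spread of the simulated counts was set in advance, not taken from these mice. Members and lists were chosen with earlier results of these data known. The named genes were the receptors and, in each list, the genes past the threshold and the 2 with the smallest p in the averaged genotype fit. Likeness was Pearson's r over 12 mice against genes of mean at least 50, and the 2 most alike were named. Alternatives were another pseudocount, filter, variance model, scaling, replicate block, shared fit and leaving out mice. Promoter windows came from RefSeq, and coding sequences and exons from GENCODE M21, which matched 19295 of 19312 genes. No protein sequence is shown.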

Additional observations from a re-analysis of the deposited data

How the results depend on the processing

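The count of receptors past the threshold was 0 in every alternative and every fit without 1 mouse for the pairwise comparisons, the interaction and the averaged memantine effect. For the averaged genotype effect, the count of 1 receptor, Oprl1, became 0 without a variance trend (log2 0.21, adjusted p = 0.0822) and with the third mice of KO-Veh and WT-Veh left out together (log2 0.23, adjusted p = 0.0945), a choice made after seeing the data. It was 0 to 2 receptors over the fits without 1 mouse, 2 without WT-Mem replicate 3, where Adora1 also passed (adjusted p = 0.0442). For Oprl1 the adjusted p was 0.0374 to 0.0931 over those fits, and 0.0320 to 0.0945 over the other alternatives.

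The counts of all genes past the threshold moved more. For Veh-K/W transcripts (5) they were 3 with a pseudocount of 5, 3 with one of 0.1, 2 with a filter at a mean of 50, 2 in a fit of all 12 mice and 3 without the third mice, and 2 to 53 without 1 mouse. For Mem-K/W transcripts (12) they were 4 without a variance trend and 636 in a fit of all 12 mice, and 2 to 1911 without 1 mouse. For WT-M/V transcripts (2) they were 1 with either pseudocount, 0 with the filter at 50 (541 genes at an unadjusted p under 0.05), 0 in a fit of all 12 mice (696 genes) and 1 without the third mice, and 1 to 3 without 1 mouse. For KO-M/V transcripts (0) they were 0 to 97, for the interaction (0) 0 to 4 and for the averaged memantine effect (0) 0 to 120 without 1 mouse. For the averaged genotype effect (1856) they were 670 without a variance trend, 74 without the third mice, and 528 to 3263 without 1 mouse. In the same fit the count of list genes (16) was 1 without the third mice and 4 to 28 without 1 mouse. The highest counts of Mem-K/W, KO-M/V, averaged genotype and averaged memantine fits were those without KO-Mem replicate 3, and the lowest averaged genotype count was that without KO-Veh replicate 3. The cause was not tested.

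When the replicate number was added as a block, the count was 2 for Veh-K/W, 4 for Mem-K/W and 1 for WT-M/V transcripts, and no call of a receptor changed. Same-numbered mice of different groups had correlations of deviations from -0.27 to 0.20 (median -0.03, 18 pairs), against -0.22 to 0.22 for other numbers. With so few mice per group, these overlapping ranges cannot decide whether the numbers pair the mice. Whether same-numbered mice shared a litter, dissection or batch was not tested.

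Directions turned only for receptor values that did not pass. Without the third mice, Cnr1 was at -0.066 and Npy1r at -0.031 in WT-M/V transcripts, Chrm2 at 0.023 in the interaction, Cnr1 at -0.0061 in the averaged genotype effect, and Chrm4 at -0.052 and Npy1r at -0.039 in the averaged memantine effect. Rescaling by the median ratio put the interaction of Oprl1 at 0.0027, and rescaling moved the median of all genes by under 0.02 on the log2 scale. Over the fits without 1 mouse, some receptor values crossed 0 (log2). In Veh-K/W transcripts they ran from -0.066 to 0.20 for Oprm1. In Mem-K/W transcripts they ran from -0.11 to 0.035 for Cnr1, from -0.020 to 0.19 for Oprk1, from -0.079 to 0.017 for Hrh3, from -0.36 to 0.024 for Oprm1 and from -0.038 to 0.15 for Chrm2. In KO-M/V transcripts they ran from -0.050 to 0.085 for Oprk1, from -0.071 to 0.010 for Npy1r, from -0.044 to 0.0015 for Gabbr1, from -0.076 to 0.0022 for Hrh3 and from -0.034 to 0.11 for Oprl1. In WT-M/V transcripts they ran from -0.11 to 0.053 for Chrm2, from -0.066 to 0.099 for Cnr1, from -0.037 to 0.15 for Npy1r, from -0.22 to 0.048 for Oprm1 and from -0.015 to 0.10 for Oprl1. In the interaction they ran from -0.075 to 0.030 for Adora1, from -0.078 to 0.063 for Oprl1, from -0.18 to 0.022 for Chrm2 and from -0.0029 to 0.043 for Gabbr1. In the averaged genotype effect they ran from -0.098 to 0.027 for Chrm4 and from -0.14 to 0.048 for Oprm1. In the averaged memantine effect they ran from -0.023 to 0.093 for Chrm4 and from -0.040 to 0.054 for Npy1r. The sequencing depth is unknown, and 3 mice per group limit the smallest difference that can pass, most of all for Oprm1.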
